A study of Homo sapiens with 6 samples.

Results

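The transcripts of the mitochondrial genome were examined in Calu-6, a human lung carcinoma cell line, after transfection of an siRNA against the TERT Delta 2-4 splice variant. The members were all genes of the deposited count table whose name starts with MT-, which gave 20 of the 10072 genes and 21 of the 21472 transcript models in the table. The cells had received 10 nM of a non-silencing siRNA (siControl) or of an siRNA to the junction of TERT exons 1 and 5 (siDelta2-4) with RNAiMAX for 48 h. Each group had 3 libraries of long PCR-cDNA reads, sequenced together on 1 MinION flow cell. The labels called the cells wild type, whereas the count columns carried the word Empty, which the study used for cells with an empty Flag-V5 vector. A single siRNA stood for the knockdown, and TERT had 0 rows in the table, so its own level was not analysed here.

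The libraries held between 1037468 and 1309241 counts and are numbered below as in the deposited columns, where a number does not pair a library with one of the other group. The study described the libraries as biological replicates, but the labels did not say that they came from separate cultures, so p-values measure the spread between these libraries. Of the epithelial markers looked up, KRT8 and KRT18 had at least 114 counts in every library, KRT7 and EPCAM had at most 11, and KRT19 had 1 count in all. Among markers of leukocytes, fibroblasts and endothelium, CD68 had 1 to 3 counts per library and PTPRC, CD3E, COL1A1, DCN and PECAM1 had no row.

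The human mitochondrial genome is a small circle carrying 37 genes, namely 13 mRNA genes, 2 rRNA genes and 22 tRNA genes. Both of its strands are read as long RNAs that span many genes, and the tRNAs that lie between the other genes are cut out, which frees the mRNAs and rRNAs. The rRNAs and most of the mRNAs then receive short poly(A) tails, which allows them to be copied from an oligo(dT) primer, whereas the MT-ND6 mRNA is known to lack such a tail. The mRNAs encode core subunits of respiratory complexes I, III and IV and of ATP synthase, and the rRNAs form the mitochondrial ribosome that translates them.

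All 13 mRNA genes and both rRNA genes were listed in the table, against 5 of the 22 tRNA genes. The strand of the listed genes was uneven. In Gencode 44, which matched all 20 by identifier and version, the plus strand of chromosome M holds 28 genes and the minus strand 9. All 12 mRNA genes and both rRNA genes of the plus strand were listed and 0 of its 14 tRNA genes, whereas the minus strand had MT-ND6 and 5 of its 8 tRNA genes listed (MT-TQ, MT-TY, MT-TS1, MT-TE and MT-TP). The other 17 tRNA genes were not analysed here. Every known model in the table had at least 1 count in siDelta2-4, so a gene counted in siControl alone could not be seen.

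The minus-strand tRNA genes MT-TS1 and MT-TY were the tRNA genes with enough counts to test, and their reference sequences on GRCh38 are shown with the anticodon in capitals. MT-TS1 (chrM:7446-7514, minus strand) encodes a serine tRNA and lies directly beside the end of MT-CO1, with 0 bases between them on the map. MT-TY (chrM:5826-5891, minus strand) encodes the tyrosine tRNA and lies beside the start of MT-CO1, with 12 bases between them. The last line gives the plus strand over the end of MT-CO1 (chrM:7416-7475), with the stop codon of MT-CO1 in capitals, followed by bases that lie opposite MT-TS1.
MT-TS1: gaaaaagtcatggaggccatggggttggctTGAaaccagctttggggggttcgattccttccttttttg
MT-TY: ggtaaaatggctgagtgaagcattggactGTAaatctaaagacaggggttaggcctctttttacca
End of MT-CO1: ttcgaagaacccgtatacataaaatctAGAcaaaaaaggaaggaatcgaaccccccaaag

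The mRNA genes differ in how they end and in whether they overlap, and overlap bears on reads assigned to a single gene. In 6 of the 13 the DNA stops partway through the stop codon, and the poly(A) tail supplies the missing A bases. These ends are shown over their last 30 bases on the plus strand, with the bases of the unfinished stop codon in capitals.
MT-ND1 (chrM:4233-4262): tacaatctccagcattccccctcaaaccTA
MT-ND2 (chrM:5482-5511): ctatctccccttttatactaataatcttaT
MT-CO3 (chrM:9961-9990): tgtatgtctccatctattgatgagggtctT
MT-ND3 (chrM:10375-10404): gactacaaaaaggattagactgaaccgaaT
MT-ND4 (chrM:12108-12137): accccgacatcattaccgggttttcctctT
MT-CYB (chrM:15858-15887): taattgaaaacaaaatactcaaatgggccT

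The gene pairs MT-ATP8 with MT-ATP6 and MT-ND4L with MT-ND4 are each read from a shared mRNA. They share 46 bases (chrM:8527-8572) and 7 bases, respectively. The overlap of MT-ATP8 and MT-ATP6 is shown with the start codon of MT-ATP6 and the stop codon of MT-ATP8 in capitals, and the end of MT-ND4L (chrM:10737-10779) with the bases it shares with MT-ND4 in capitals.
MT-ATP8 and MT-ATP6: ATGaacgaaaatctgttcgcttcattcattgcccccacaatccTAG
MT-ND4L and MT-ND4: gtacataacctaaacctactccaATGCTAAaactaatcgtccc

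To ask which mitochondrial genes changed with the siRNA, counts were summed per gene and all genes of the table were fitted together with edgeR's quasi-likelihood test, and an adjusted p under 0.1 counted as a call. Of the 20 listed genes, 15 passed the filter on low counts. Among them 11 were higher in siDelta2-4 and 1 was lower, while 7.00% of all 3888 genes tested were called higher and 5.94% lower. The 11 were both rRNA genes, 8 of the 11 mRNA genes tested and the tRNA gene MT-TS1, and the gene called lower was the tRNA gene MT-TY. MT-TS1 passed the filter only through its siDelta2-4 libraries, so its place among the higher genes leans on the group in which it was high. Values in CPM (counts scaled to a common library total by the TMM method) did not overlap between the groups for 12 genes that were higher (14.1% of all genes tested) and 1 that was lower (11.9%). The median log2 fold change of the 15 genes was 0.36, and that of all genes tested was 0.03. Over all genes 272 were called higher and 231 lower, a split that depended on scaling, with 357 and 158 for library totals alone and 188 and 261 with a per-library trend on transcript length removed. The mitochondrial counts were 12 higher and 1 lower for library totals, and 8 and 0 with the length trend removed.

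**Figure D1:**
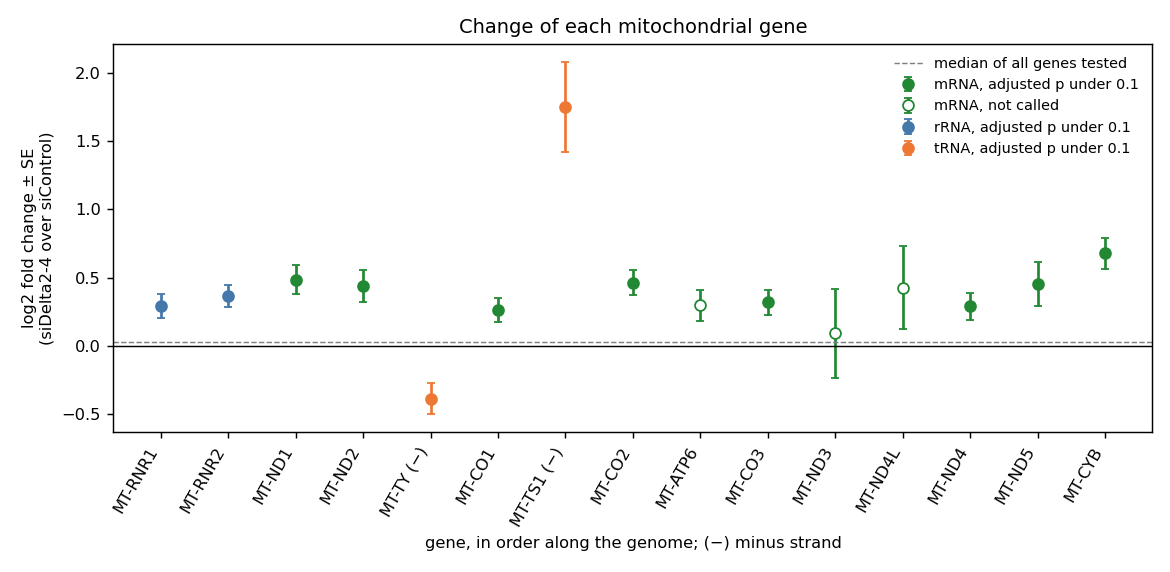
Log2 fold change (siDelta2-4 over siControl) with its standard error for the 15 mitochondrial genes that passed the filter, in order along the genome; filled points have an edgeR adjusted p under 0.1, and the dashed line is the median of all genes tested (0.03). Most mRNA and rRNA genes lie between 0.26 and 0.68, MT-TS1 lies above them at 1.75 and MT-TY below 0 at -0.39.

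Mitochondrial genes as a whole took 1.04% ± 0.0550 of the library count in siControl and 1.38% ± 0.0560 in siDelta2-4 (n = 3 with SD). The groups did not overlap, and the exact two-sided permutation p was 0.1, the smallest that 3 libraries against 3 allow. The siControl libraries held 12233, 10870 and 10500 mitochondrial counts and the siDelta2-4 libraries 14860, 15698 and 18824. A larger share of mitochondrial RNA and a smaller amount of other RNA per cell cannot be told apart in such libraries.

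**Figure D2:**
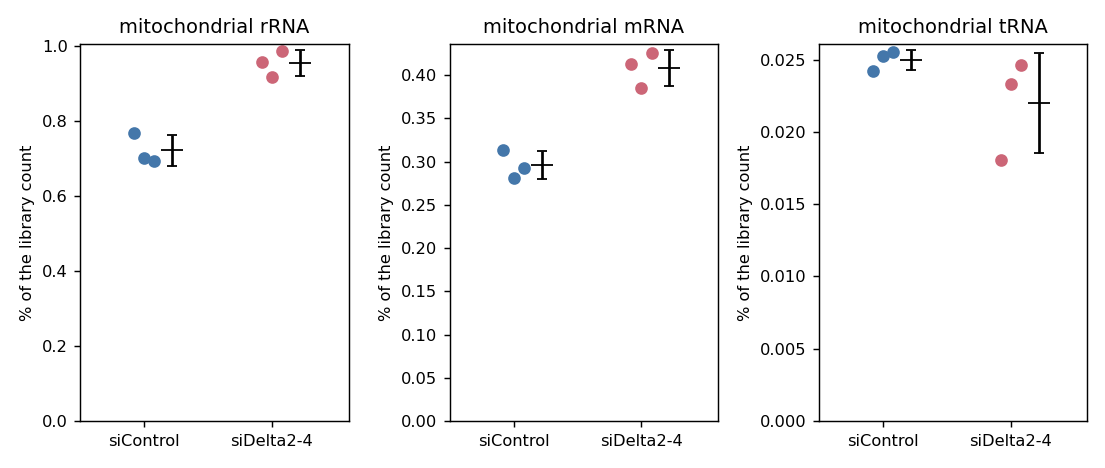
Percent of each library's count on mitochondrial rRNA, mRNA and tRNA genes, with each library as a point and the mean ± SD (n = 3) beside it; each panel has its own axis starting at 0. The rRNA and mRNA points of siDelta2-4 lie above all siControl points, and the tRNA points of the groups overlap.

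Both rRNAs rose. MT-RNR2, the large subunit rRNA (ENSG00000210082.2, chrM:1671-3229), had 5219, 4538 and 4758 counts in siControl libraries 1, 2 and 3 and 6493, 6889 and 8261 in siDelta2-4 libraries 1, 2 and 3. Its mean CPM was 4612 ± 376 in the siControl and 5936 ± 372 in the siDelta2-4 libraries (SD, n = 3), without overlap, and its log2 fold change was 0.36 with an SE of 0.08 (edgeR adjusted p = 0.00451). With a per-library trend on transcript length removed, the value was 0.20 (limma adjusted p = 0.163). MT-RNR1, the small subunit rRNA (ENSG00000211459.2, chrM:648-1601), had 3278, 3026 and 2440 counts in the siControl libraries against 3756, 3969 and 4664 in those of siDelta2-4. The CPM of MT-RNR1 did not overlap either, at 2779 ± 431 and 3400 ± 187 (SD, n = 3), and its log2 fold change was 0.29 with an SE of 0.09 (edgeR adjusted p = 0.0440). MT-RNR1 was not called in DESeq2 (0.24, DESeq2 adjusted p = 0.136). Library 3 of siControl was the low one for MT-RNR1, and without it the value was 0.15 (edgeR adjusted p = 0.105). It was also the library in which MT-RNR1 was lowest relative to MT-RNR2, at 51.3% against 62.8% and 66.7% in the other siControl libraries and 56.5% to 57.8% in siDelta2-4. The ratio overlapped between the groups (60.3% ± 8.01 and 57.3% ± 0.744 as mean ± SD, two-sided exact permutation p = 0.6).

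Complex I, the enzyme through which NADH feeds electrons into the chain, has 7 subunits encoded by the mitochondrial genome, and 4 of the 6 tested were higher. MT-ND1 (ENSG00000198888.2, chrM:3307-4262) had 218, 223 and 195 counts in the siControl libraries against 321, 315 and 394 in those of siDelta2-4, which gave a log2 fold change of 0.49 with an SE of 0.11 (edgeR adjusted p = 0.00517). MT-ND2 (ENSG00000198763.3, chrM:4470-5511) had 221, 191 and 199 counts against 303, 269 and 385, which gave a log2 fold change of 0.44 with an SE of 0.12 (edgeR adjusted p = 0.0214). In neither gene did the CPM of the groups overlap. MT-ND4 (ENSG00000198886.2, chrM:10760-12137) had 339, 306 and 309 counts against 389, 453 and 509, which gave a log2 fold change of 0.29 with an SE of 0.10 (edgeR adjusted p = 0.0633). MT-ND5 (ENSG00000198786.2, chrM:12337-14148), the longest mitochondrial gene, had 69, 61 and 55 counts against 82, 89 and 123, which gave a log2 fold change of 0.45 with an SE of 0.16 (edgeR adjusted p = 0.0810). Every siDelta2-4 library lay above every siControl library in CPM for these genes too, but both calls were close to the threshold. They were lost with the trend on length removed (0.13 for MT-ND4, limma adjusted p = 0.487, and 0.26 for MT-ND5, limma adjusted p = 0.381) and in DESeq2 (0.24, adjusted p = 0.175, and 0.40, adjusted p = 0.248).

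The short complex I genes were counted far less and did not pass the test. MT-ND4L (ENSG00000212907.2, chrM:10470-10766) had 12, 16 and 13 counts in the siControl libraries against 18, 17 and 29 in those of siDelta2-4, which gave a log2 fold change of 0.43 with an SE of 0.30 (edgeR adjusted p = 0.419). MT-ND3 (ENSG00000198840.2, chrM:10059-10404) had 12, 12 and 18 counts against 9, 19 and 24, which gave a log2 fold change of 0.09 with an SE of 0.33 (edgeR adjusted p = 0.906). The groups overlapped for both, and the approximate 95% intervals of their log2 fold changes, taken from the SE, ran from -0.17 to 1.02 for MT-ND4L and from -0.55 to 0.74 for MT-ND3, so a change of the size seen in the other complex I genes was not detectable at this depth.

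MT-CYB, cytochrome b of complex III (ENSG00000198727.2, chrM:14747-15887), had the largest change of the mRNA genes tested. Its counts were 182, 142 and 162 in siControl and 278, 281 and 341 in siDelta2-4. Its CPM of 154 ± 20.4 and 247 ± 18.7 (SD, n = 3) did not overlap, and its log2 fold change was 0.68 with an SE of 0.12 (edgeR adjusted p = 0.000376).

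All 3 mitochondrial subunits of complex IV, cytochrome c oxidase, which passes electrons to oxygen, were called higher. MT-CO2 (ENSG00000198712.1, chrM:7586-8269), the most counted mRNA, had 1291, 1019 and 1060 counts in the siControl libraries against 1642, 1651 and 2085 in those of siDelta2-4. Its log2 fold change was 0.46 with an SE of 0.09 (edgeR adjusted p = 0.00208). MT-CO3 (ENSG00000198938.2, chrM:9207-9990) had 497, 432 and 437 counts against 623, 618 and 726, which gave a log2 fold change of 0.32 with an SE of 0.09 (edgeR adjusted p = 0.0350). The catalytic subunit gene MT-CO1 (ENSG00000198804.2, chrM:5904-7445) had the smallest change of the 3. It had 442, 448 and 416 counts against 532, 623 and 655, which gave a log2 fold change of 0.26 with an SE of 0.09 (edgeR adjusted p = 0.0687). MT-CO1 was not called with DESeq2 size factors (0.23, edgeR adjusted p = 0.127) or with the trend on length removed (0.10, limma adjusted p = 0.610). DESeq2 did not call MT-CO1 either (0.21, DESeq2 adjusted p = 0.184).

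Of the ATP synthase genes, MT-ATP6 missed the threshold and MT-ATP8 was almost uncounted. MT-ATP6 (ENSG00000198899.2, chrM:8527-9207), a subunit of the proton channel, had 179, 180 and 168 counts in the siControl libraries against 220, 227 and 304 in those of siDelta2-4, without overlap in CPM. Its log2 fold change of 0.30 with an SE of 0.11 (edgeR adjusted p = 0.106) lay between those of MT-ND4 and MT-CO3. MT-ATP6 was called with library totals as the only scaling (0.36, edgeR adjusted p = 0.0426) and with the trend on length removed (0.37, limma adjusted p = 0.0359). A filter of at least 10 counts in every library also gave a call (0.30, edgeR adjusted p = 0.0740). DESeq2 did not call it (0.25, DESeq2 adjusted p = 0.297), nor did any fit that left out a library. MT-ATP8 (ENSG00000228253.1, chrM:8366-8572) had 1, 0 and 0 counts in the siControl libraries against 1, 2 and 0 in those of siDelta2-4, although it shares its mRNA with MT-ATP6.

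**Figure D3:**
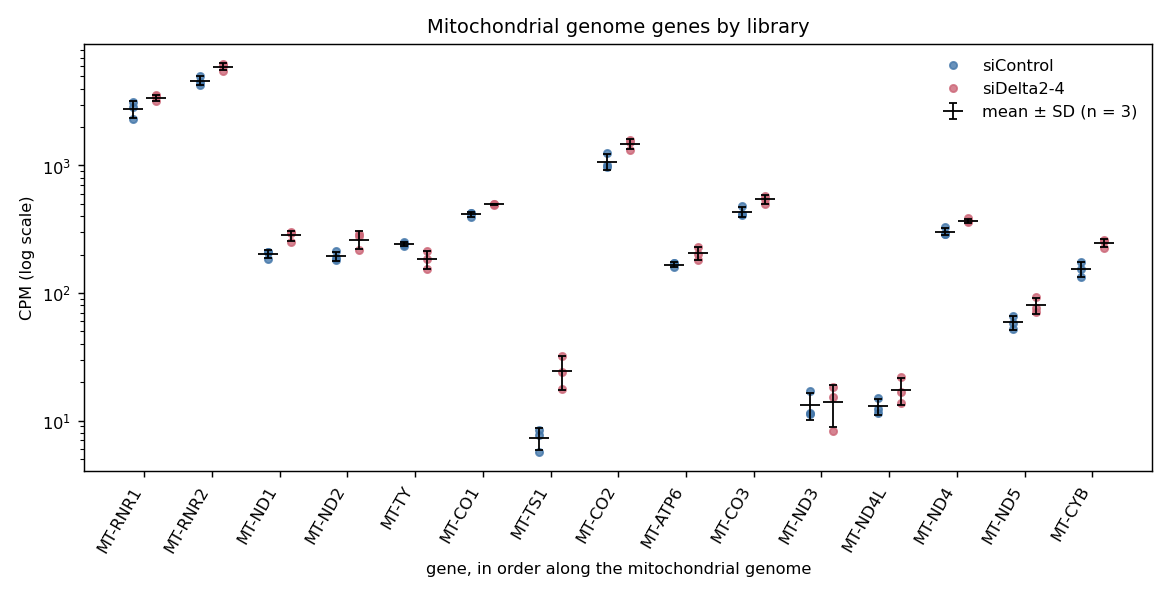
CPM (log axis) of the 15 mitochondrial genes that passed the filter, by library, with the mean ± SD (n = 3); genes are in order along the genome. The groups separate for 13 of them and overlap for MT-ND3 and MT-ND4L, and mean levels run from 7.31 CPM for MT-TS1 in siControl to 5936 CPM for MT-RNR2 in siDelta2-4.

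The genes of the minus strand did not move together. MT-TS1 (ENSG00000210151.2), the serine tRNA gene at the end of MT-CO1, had 8, 6 and 9 counts in siControl libraries 1, 2 and 3 and 19, 40 and 32 in siDelta2-4 libraries 1, 2 and 3. The lowest siDelta2-4 library had 17.6 CPM and the highest siControl library 8.52. Its log2 fold change of 1.75 with an SE of 0.33 (edgeR adjusted p = 0.00122) was exceeded by 3 of the 3888 genes tested. MT-TS1 passed the filter on low counts only through its siDelta2-4 libraries, so its rank and calls lean on the group in which it was high. A fit that asked for at least 10 counts in every library left it out. The gene was called in all 6 fits that left out a library, with log2 fold changes from 1.52 to 1.92. DESeq2 gave 1.71 with an unadjusted p of 0.000369 and no adjusted p, since its filter on mean counts left the gene out.

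MT-TY (ENSG00000210144.1), the tyrosine tRNA gene before MT-CO1, was the most counted tRNA gene and the mitochondrial gene called lower. It had 251, 263 and 249 counts in the siControl libraries against 167, 231 and 281 in those of siDelta2-4, so its highest raw count was in siDelta2-4 library 3, the deepest library. The mean CPM was 242 ± 6.78 in the siControl and 184 ± 29.3 in the siDelta2-4 libraries (SD, n = 3), without overlap, and the log2 fold change was -0.39 with an SE of 0.11 (edgeR adjusted p = 0.0348). The call was lost with the trend on length removed (-0.17, limma adjusted p = 0.424) and without siControl library 2 (-0.37, edgeR adjusted p = 0.117), siDelta2-4 library 1 (-0.29, edgeR adjusted p = 0.200) or siDelta2-4 library 2 (-0.39, edgeR adjusted p = 0.129).

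MT-ND6 (ENSG00000198695.2, chrM:14149-14673), the complex I subunit gene of the minus strand, did not pass the filter. It had 5, 4 and 5 counts in the siControl libraries against 0, 0 and 2 in those of siDelta2-4, so the groups did not overlap. Relative to the TMM-scaled totals, its pooled level in siDelta2-4 was 0.123 times that in siControl, with a 95% exact interval of 0.0136 to 0.538 that covers counting error only. In the fit with no filter on low counts it was called lower (-2.80 ± 0.88, SE, edgeR adjusted p = 0.0488), a value that depends on the small count edgeR adds, and DESeq2 gave no adjusted p. The tRNA genes MT-TP, MT-TE and MT-TQ had 24, 12 and 4 counts in all, with pooled ratios of 0.864, 1.21 and 0.864 whose intervals all included 1. Reads from a gene and from the opposite strand cannot be told apart unless strand was kept in counting, which is not given in the sources used here, so the values of MT-TS1, MT-TY and MT-ND6 are uncertain as to the strand of origin. Some nuclear genes looked up below had counts close to those of an overlapping opposite-strand gene. ATP5F1E had 6262 beside 6181 of TUBB1, and NDUFC2 had 4154 beside 3972 of THRSP. Others did not, such as COX4I1 with 5860 beside 6 of EMC8. Whether the counts of MT-TS1, MT-TY and MT-ND6 came from plus-strand RNAs was not tested.

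The make-up of the mitochondrial count was compared next, as it does not depend on library scaling. The mRNA genes made up 28.4% ± 0.508 of the mitochondrial count in siControl and 29.5% ± 0.353 in siDelta2-4, without overlap (n = 3 with SD, two-sided exact permutation p = 0.1). The rRNA genes held 69.2% ± 0.564 and 68.9% ± 0.255, a difference within the spread of the libraries (n = 3 with SD, two-sided exact permutation p = 0.6). The tRNA genes, mostly MT-TY, went from 2.41% ± 0.186 to 1.59% ± 0.253, without overlap (n = 3 with SD, two-sided exact permutation p = 0.1). For most genes the share of the mitochondrial count overlapped between the groups. Of the 20 listed genes, the shares of MT-CYB and MT-TS1 were higher without overlap, and those of MT-TY, MT-ND6 and MT-TP were lower without overlap, MT-TP with 3 to 5 counts per library. These 5 of 20 are near the 26.0% of all genes tested whose CPM did not overlap in either direction. That share rests on CPM and on genes that passed the filter, so measure and gene set differ and the comparison is rough.

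Within the mRNA count alone, MT-CYB held 5.25%, 4.68% and 5.33% in the siControl libraries and 6.29%, 6.16% and 6.11% in the siDelta2-4 libraries. Its mean rose from 5.09% ± 0.355 to 6.19% ± 0.0930 (n = 3 with SD), and the exact two-sided permutation p of 0.1 was the smallest possible. MT-CO3 went from 14.3% ± 0.0759 to 13.6% ± 0.542 and MT-ND6 from 0.147% ± 0.0166 to 0.0120% ± 0.0207, also without overlap (n = 3 with SD, two-sided exact permutation p = 0.1 for each). These 3 of 13 genes are also near the 26.0% of all genes tested without overlap in CPM, which again differs in measure and gene set. The other 10 mRNA genes overlapped, including MT-CO2, which made up 35.2% ± 1.84 and 36.9% ± 0.645 of the mRNA count (n = 3 with SD, two-sided exact permutation p = 0.3).

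**Figure D4:**
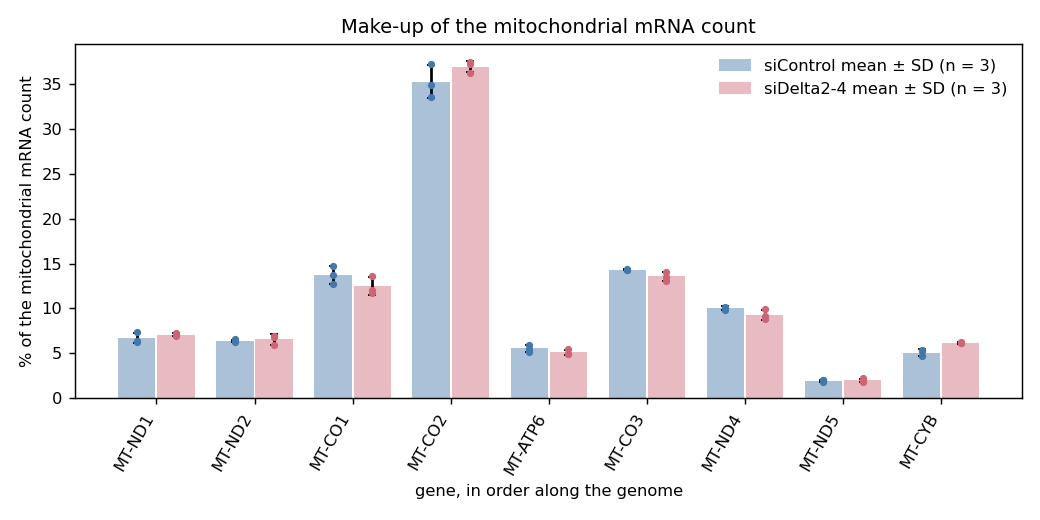
Percent of the mitochondrial mRNA count on the 9 mRNA genes with more than 0.5% of it, as bars for the group mean with SD (n = 3) and points for the libraries; the axis starts at 0. MT-CYB is higher in every siDelta2-4 library (6.11% to 6.29%) than in every siControl library (4.68% to 5.33%), MT-CO3 is lower, and the others overlap.

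Levels between mRNA and rRNA genes were set side by side as CPM per kilobase of gene length in siControl. This scale bears on the order, since a long read can stand for a whole RNA whatever its length. In CPM without division by length, MT-RNR2 lay apart from MT-RNR1 in siControl (4612 ± 376 and 2779 ± 431, SD, n = 3) and MT-ND5 lay above MT-ND4L (58.8 ± 7.26 and 13.01 ± 1.90, SD, n = 3). Per kilobase the rRNAs led, with 2958 ± 241 for MT-RNR2 and 2913 ± 452 for MT-RNR1 (SD, n = 3), and their ranges overlapped. Next came MT-CO2 with 1566 ± 221 and MT-CO3 with 554 ± 49.7 CPM per kilobase, each apart from its neighbours. MT-CO1 had 269 ± 11.8 CPM per kilobase and lay just above MT-ATP6 with 246 ± 10.7. From MT-ATP6 through MT-ND4, MT-ND1 and MT-ND2 (186 ± 16.0 CPM per kilobase) each gene overlapped the next, and MT-CYB followed apart at 135 ± 17.9. MT-ND4L, MT-ND3 and MT-ND5 formed a low group of 43.8 ± 6.40, 38.5 ± 9.30 and 32.4 ± 4.01 CPM per kilobase in which MT-ND3 overlapped both of the others, while MT-ND4L and MT-ND5 did not overlap. MT-ND6 and MT-ATP8 were lowest, at 8.47 ± 1.09 and 1.55 ± 2.69. Genes that are read from a single plus-strand RNA thus differed in counts per kilobase, and the paired genes MT-ATP8 and MT-ATP6, or MT-ND4L and MT-ND4, were counted unequally although they share an mRNA. Whether the RNAs themselves differed in level was not tested. In siDelta2-4 the first 6 places were held by the same genes in the same order, and MT-CYB again held place 10, at 217 ± 16.4 CPM per kilobase, where its range overlapped that of MT-ND2 (252 ± 39.3).

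The endings shown above did not sort the changes. The 6 mRNA genes with an unfinished stop codon had log2 fold changes from 0.09 to 0.68 with a median of 0.38. The 5 tested mRNA genes with a whole stop codon in the DNA had values from 0.26 to 0.46 with a median of 0.43. This grouping follows the DNA alone, in which the last base of MT-ATP6 is also the first of MT-CO3.

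The transcript models were simple. Of the 21 models, 20 were annotated single-exon models whose deposited length equalled that of the gene, so this length describes the annotation and not the reads. They held almost all mitochondrial counts (99.96%), whereas known models held 45.3% of all counts in the table. Fitted over all 6768 models tested, 11 mitochondrial models were called higher (3.95% of all models) and 1 lower (3.00%), beside 6.94% called in either direction over all models, and these were the models of the genes called above. The remaining model was an unannotated one of MT-RNR2 with 2 exons and 1513 bases, 46 fewer than the gene, which TALON classed as a suffix of the known transcript. It had 2, 4 and 3 counts in the siControl libraries against 7, 11 and 8 in those of siDelta2-4, and it did not pass the filter. Each unannotated model in the table had 5 or more counts in all siDelta2-4 libraries, while in siControl such models went down to 0, so that this minimum partly fixes the direction of this difference. It held 0.0632% ± 0.0249 of the MT-RNR2 count in siControl and 0.121% ± 0.0336 in siDelta2-4 (n = 3 with SD).

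Nuclear copies of mitochondrial genes can take up mitochondrial reads. The pseudogenes MTCO1P12 (chromosome 1, 631074 to 632616) and MTND2P28 (chromosome 1, 629640 to 630683) were the copies in the table, with 98.7% and 98.4% of aligned bases identical to MT-CO1 and MT-ND2. MTCO1P12 had 12 counts to the 3116 of MT-CO1 over the 6 libraries, and MTND2P28 had 1 to the 1568 of MT-ND2.

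The mitochondrial subunits assemble with many more subunits that are encoded in the nucleus, and these were looked up in the same fit. Of 74 nuclear subunits of complexes I, III, IV and ATP synthase in the list, all were in the table and 70 were tested. Among these, 2 were called higher, 8 lower and 60 were not called, against 7.00% and 5.94% of all genes tested. Their median log2 fold change was -0.11 with 51 of 70 below 0, beside the median of 0.03 for all genes. Several of the 70 overlap an opposite-strand gene with a similar count, such as NDUFC2 with 4154 beside 3972 of THRSP. The reads of such members are uncertain. By complex, the medians were -0.17 for complex I (36 tested), -0.04 for complex III (7 tested), -0.11 for complex IV (11 tested) and -0.07 for ATP synthase (16 tested). The numbers called higher and lower depended on the scaling, since library totals alone gave 5 higher and 5 lower, and on the libraries, since 5 were higher and 26 lower without siControl library 3, where calls over all genes also went up to 13.5% higher and 11.9% lower, 1 was higher without siControl library 1 or siDelta2-4 library 2, 3 were lower without siDelta2-4 library 2, and 4 were lower without siControl library 2 or siDelta2-4 library 1 or 3.

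The called nuclear genes with the largest changes belonged to complex I and ATP synthase. NDUFS7, an iron-sulfur subunit of complex I, had 190, 215 and 244 counts in the siControl libraries against 166, 154 and 156 in those of siDelta2-4, which gave a log2 fold change of -0.65 with an SE of 0.12 (edgeR adjusted p = 0.00122). The opposite-strand gene ENSG00000280486 overlaps it and had 1146 counts beside its 1125, so its reads are uncertain. NDUFAB1, the acyl carrier protein, had 193, 216 and 195 counts against 145, 160 and 166, which gave a log2 fold change of -0.57 with an SE of 0.11 (edgeR adjusted p = 0.00180). NDUFB7, an accessory subunit of complex I, followed with -0.48 ± 0.17 (SE, edgeR adjusted p = 0.0770). The genes called higher were ATP5PB, a stalk subunit of ATP synthase (0.51 ± 0.13, SE, edgeR adjusted p = 0.0123), and NDUFB5, an accessory subunit of complex I (0.50 ± 0.12, SE, edgeR adjusted p = 0.00687). NDUFB5 is likewise uncertain, with 920 counts beside 914 of the overlapping opposite-strand gene ENSG00000239096. Lower calls in the other complexes included ATP5MC1, a subunit of the ATP synthase ring (-0.45 ± 0.09, SE, edgeR adjusted p = 0.00228). COX6A1 of complex IV (-0.36 ± 0.09, SE, edgeR adjusted p = 0.00967) and UQCR11 of complex III (-0.28 ± 0.10, SE, edgeR adjusted p = 0.0728) were also lower. So was ATP5F1E, a subunit of the central stalk of ATP synthase (-0.27 ± 0.09, SE, edgeR adjusted p = 0.0682). ATP5F1E is uncertain too, with 6262 counts beside 6181 of the overlapping opposite-strand gene TUBB1. For each of these 9 genes the CPM of the groups did not overlap, as for 26.0% of all genes tested. The 9 were picked as called in these same libraries, so this adds no separate evidence.

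Genes that copy, transcribe, process or translate the mitochondrial genome were mostly counted too low to test. Of 57 in the list, 46 were in the table and 13 were tested. In edgeR 0 were called higher and 1 lower, with 0 higher and 2 lower at an unadjusted p under 0.05, and DESeq2 called 0 higher and 2 lower. Over all genes, 7.00% were called higher and 5.94% lower in edgeR, 12.9% and 10.2% had an unadjusted p under 0.05, and DESeq2 called 78 higher and 201 lower of the 1675 genes to which it gave an adjusted p. The median log2 fold change of the 13 tested genes was 0.04. Some of the 13 overlap an opposite-strand gene with a similar count. MTO1, the most counted of them, had 10449 beside 13956 of EEF1A1, and SSBP1 had 2695 beside 2087 of WEE2-AS1. TFB1M, MRRF and OXA1L were also close to such a gene in count. The reads of these members are uncertain, and so is their part in the median and the calls. The called gene was SLIRP, which binds mitochondrial mRNAs together with LRPPRC. It had 701, 586 and 541 counts in the siControl libraries against 501, 531 and 585 in those of siDelta2-4, which gave a log2 fold change of -0.39 with an SE of 0.10 (edgeR adjusted p = 0.0141). SLIRP was not close in count to its opposite-strand gene, with 3445 beside 40 of SNW1.

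**Figure D5:**
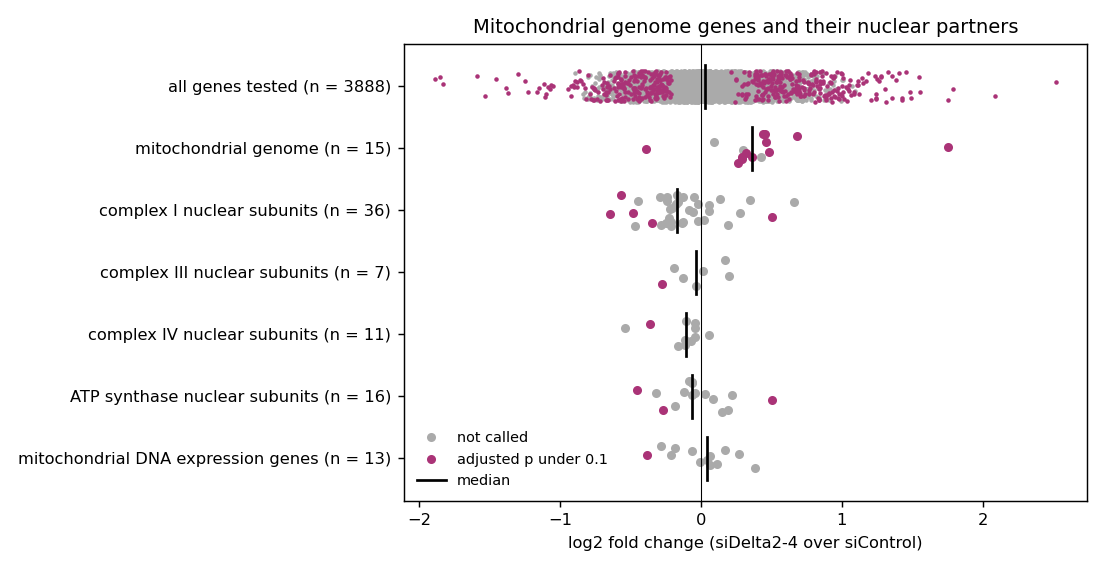
Log2 fold change (siDelta2-4 over siControl) of all genes tested, of the 15 mitochondrial genes and of the nuclear lists; each point is a gene, coloured where its edgeR adjusted p is under 0.1, and black bars are medians. The median of the mitochondrial genes is 0.36, and those of the nuclear lists run from -0.17 to 0.04.

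The calls of the mitochondrial genes differed in how far they rested on single libraries. MT-RNR2, MT-ND1, MT-CO2, MT-CYB and MT-TS1 were called in all 6 fits that left out a library, although MT-TS1 had passed the filter only through siDelta2-4. MT-ND2 and MT-CO3 were called in 3 each and lost their calls without siControl library 2, siDelta2-4 library 1 or siDelta2-4 library 3, with log2 fold changes of 0.34 to 0.38 and 0.27 to 0.29. MT-RNR1 lost its call without siControl library 2 (0.31) or 3 (0.15) or siDelta2-4 library 1 (0.27) or 3 (0.25), and MT-ND4 without siControl library 2 (0.25) or any siDelta2-4 library (0.24 to 0.30). MT-CO1 was called without siControl library 3 alone (0.20) and MT-ND5 was called without siControl library 1 alone (0.53). In these fits every one of the 11 genes called higher kept a log2 fold change above 0, with a lowest value of 0.15 for MT-RNR1 without siControl library 3. The number called higher was 5 without siControl library 2, siDelta2-4 library 1 or siDelta2-4 library 3, and 8 to 10 without one of the others. Over all genes the calls moved too, with 2.79%, 4.16% and 4.41% called higher in the fits without siControl library 2, siDelta2-4 library 1 and siDelta2-4 library 3, and 3.76%, 13.5% and 2.60% in those without siControl library 1, siControl library 3 and siDelta2-4 library 2.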

How the data were processed

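The authors aligned the reads to GRCh38 with minimap2 2.14 and SAMtools 1.13 (versions from the submitters' processing notes), corrected them with TranscriptClean and assigned them to Gencode 44 with TALON. The deposited table gave, for each transcript model, whole-number counts that the authors had not normalised, with model length and exon number, in 3 siControl and 3 siDelta2-4 libraries. Columns were matched to groups by the siRNA in their names. Counts were summed per gene and tested over all genes with edgeR 4.0.16 (R 4.3.3, filterByExpr, TMM, quasi-likelihood test, two-sided, Benjamini-Hochberg, no covariate), and likewise over all transcript models. Each SE was derived from the fold change and its F statistic. Shares were compared with exact permutation tests (SciPy). The alternatives were DESeq2 1.42.0, other scalings and filters, an adjusted p under 0.05, a loess trend on length removed (span 0.4, then limma 3.58.1), known models alone, annotated genes alone, a replicate block and each library left out. Scripts were tested on simulated counts. All MT- genes were described, and of the nuclear lists up to 3 called genes per list and direction. The members and lists were chosen with earlier results of these data known. Reference sequences were read from hg38.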

Additional observations from a re-analysis of the deposited data

How the results depend on the processing

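The number of mitochondrial genes called higher was 11 in edgeR, 6 in DESeq2 and 7 when the column number entered as a replicate block. It ranged from 5 to 10 when 1 library was left out. DESeq2 gave no adjusted p for MT-TS1, MT-ND3 and MT-ND4L, which edgeR had tested. Among all genes, 272 of 3888 were called higher in edgeR and 171 of 3888 with the replicate block. DESeq2 called 78 higher of the 1675 to which it gave an adjusted p. With 1 library left out, 2.60% to 13.5% of all genes were called higher. The number of mitochondrial genes called lower was 2 with no filter on low counts, where MT-ND6 was added, 0 with the trend on length removed, and 0 to 1 when 1 library was left out. Over all genes, 1.99%, 6.71% and 2.25% to 11.9% were called lower in these fits. The median log2 fold change of the genes tested stayed between 0.29 and 0.43 under the alternatives run. Of the models, 5 to 10 were called higher and 0 to 1 lower when 1 library was left out, and 0 lower when library totals alone set the scaling. Over all models, 1.25% to 8.61% were called higher and 1.12% to 6.68% lower when 1 library was left out. Library totals alone gave 2.53% lower. Numbers in the column names did not pair the libraries (correlations of the deviations from the group means of 0.0390, -0.136 and -0.0843), and with the replicate block the calls of MT-RNR1, MT-CO1, MT-ND4 and MT-ND5 were lost. The differences in share, in percentage points of the library count, were 0.112 for mRNA, 0.233 for rRNA and 0.342 for all mitochondrial genes. They were 0.147, 0.305 and 0.448 without genes added by TALON in the denominator, and 0.236, 0.485 and 0.714 for known models alone, where the tRNA difference was -0.00741, because these denominators are smaller. The share of MT-RNR2 on full-length models differed by 0 when models within 10% of the gene length counted as full length, by construction. Of the nuclear subunits, 5 were higher and 5 lower with library totals as the only scaling, and 1 to 5 were higher and 3 to 26 lower when 1 library was left out. Of the mitochondrial DNA expression genes, 2 were lower in DESeq2 and 0 to 2 when 1 library was left out. MT-ND3, which was not called, had values from -0.16 to 0.32 when 1 library was left out and fell below 0 in 3 of the 6 fits. Where no construction is named, the cause was not tested. Depth limited MT-ND3, MT-ND4L and the 5 genes that did not pass the filter, and the exact intervals of the latter cover counting error only.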
